A study of Arabidopsis thaliana with 36 samples.

Results

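The genes encoding the 9 ATG8 proteins of Arabidopsis thaliana (ATG8A to ATG8I) and the autophagy receptor NBR1 were followed through repeated heat stress (HS). These 10 genes were taken by name and annotation, with no measured value in the choice, from the 36632 genes in the count files. All 10 passed the filter on low counts, which left 20847 genes for testing.

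Autophagy encloses part of the cytoplasm in a double membrane, the autophagosome, and delivers it to the vacuole for breakdown. ATG8 is a small ubiquitin-like protein that is attached to the lipid phosphatidylethanolamine on this membrane by the conjugating enzymes ATG7 and ATG3, after the protease ATG4 has trimmed its C terminus to a glycine. NBR1 is a cargo receptor that binds ubiquitinated protein through its ubiquitin-associated domain and ATG8 through a short motif. It is itself degraded along with its cargo, and in Arabidopsis it is known for clearing protein aggregates formed under heat.

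RNA was sequenced from whole seedlings of the hsfa2 mutant, the cdk8 mutant and the Col-0 wild type (WT). The mutants were T-DNA insertion lines in the Col-0 background, each represented by a single allele. HSFA2 is a heat shock transcription factor known for its part in HS memory, and CDK8 is the kinase of the Mediator complex, which links transcription factors to RNA polymerase II. Each genotype was left without HS (NHS), given HS of 1 h at 37 °C on day 5 only (P, primed), on day 7 only (T, triggered) or on both days (P+T), and all seedlings were harvested on day 7, with 3 biological replicates for each of the 12 groups. The T/NHS ratio gives the response to a first HS, the P/NHS ratio what remained of a HS given on day 5, and the P+T/T and P+T/P ratios the response to a second HS relative to a first HS and to the primed state.

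The 36 libraries held 29409330 to 31224343 read pairs counted in genes, so that the members had between 44 counts (ATG8G, WT P+T replicate 1) and 7126 counts (NBR1, hsfa2 NHS replicate 1). Levels are given in CPM, the counts of a gene scaled to the pairs counted in genes in its library. HS changed the composition of the libraries, in that the top 50 genes of a library accounted for 28.9 to 36.5% of its counts under T and P+T, against 20.2 to 23.7% under NHS and P. Fold changes were therefore computed with edgeR after scaling by the trimmed mean of M values (TMM), which sets the bulk of genes to no change. With library size alone the median log2 fold change (log2FC) of all genes moved to -0.82 from -0.05 in WT T/NHS and to -0.81 from -0.06 in WT P+T/P, but by less than 0.1 in P+T/T and P/NHS of the WT. Whether the total RNA of the seedlings fell or only its composition changed cannot be told apart here. In the cdk8 seedlings, CDK8 had 6.72, 7.15 and 6.56 CPM at NHS, against 45.9, 42.9 and 41.0 CPM in WT. In the hsfa2 libraries HSFA2 reads remained, with 894, 1017 and 1179 CPM at T, against 4686, 4610 and 4983 CPM in WT, and this difference did not pass the test (log2FC = -2.23, edgeR adjusted p = 0.377). HSFA2 counts were lower in cdk8 too, with 45316, 41959 and 45019 counts at T, against 145546, 139576 and 148435 counts in WT. At P+T HSFA2 had 27381, 31795 and 33641 counts in cdk8, against 78880, 91555 and 84376 counts in WT. These cdk8 counts are given without a test against WT. The part of the lower HSFA2 counts in the cdk8 results was not tested. In cdk8 P replicate 1, HSP101 and HSFA2 stood at 69.7 and 19.9 CPM, apart from the other libraries of its group. The summed level of 4 photosynthetic genes was 50200 to 89100 CPM and that of 4 root genes 37.8 to 113 CPM over all libraries.

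The 9 ATG8 proteins fell into 2 sets by sequence. ATG8H (119 residues) and ATG8I (115 residues) shared 67.8% identical residues with each other and 47.9 to 56.5% with ATG8A to ATG8G over 14 pairs, whereas ATG8A to ATG8G shared 68.6 to 87.7% among themselves over 21 pairs. The sets differed at the C terminus, which is shown because it is the end that ATG4 processes. The last 30 bases of each coding sequence, read 5′ to 3′ from the reference genome (build TAIR10.1), carry in capitals the codon of the glycine that follows the threonine-phenylalanine pair:
ATG8A, chr4:11656780-11656809, + strand: aacacttttGGAtctcttaccgttgcttga
ATG8B, chr4:2328663-2328692, - strand: aacacatttGGTggatctttctactgctaa
ATG8C, chr1:22934224-22934253, + strand: agtggagagaacacctttGGTttggtttaa
ATG8D, chr2:2083211-2083240, - strand: ggtgagaacacgttcGGGatcttcttctaa
ATG8E, chr2:18625497-18625526, + strand: gagaacacattcGGTgcttcttcaatctaa
ATG8F, chr4:9306882-9306911, - strand: gaaaacacatttGGAtttggatctccataa
ATG8G, chr3:22416942-22416971, + strand: gaaaacacttttGGAtcgtcaatgacttaa
ATG8H, chr3:1955219-1955248, - strand: tgctacagcaccgagaaaactttcGGCtaa
ATG8I, chr3:5274075-5274104, - strand: tgctatagcagtgagaaaacctttGGTtga
In ATG8A to ATG8G this glycine was followed by 2 to 5 further codons before the stop, and in ATG8H and ATG8I it was the last residue, so that the annotated proteins end where ATG4 would cut.

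The ATG8 genes lie on 4 chromosomes of TAIR10.1 and have 4 to 7 coding exons. ATG8A (AT4G21980, chr4:11655562-11657034), ATG8B (AT4G04620, chr4:2328442-2330590) and ATG8F (AT4G16520, chr4:9306339-9308538) are on chromosome 4. ATG8G (AT3G60640, chr3:22415751-22417548), ATG8H (AT3G06420, chr3:1954990-1956397) and ATG8I (AT3G15580, chr3:5273526-5275095) are on chromosome 3. ATG8D (AT2G05630, chr2:2082894-2084905) and ATG8E (AT2G45170, chr2:18624264-18625791) are on chromosome 2, and ATG8C (AT1G62040, chr1:22932760-22934549) is on chromosome 1. NBR1 (AT4G24690, chr4:12741032-12744670) encodes 704 residues, in which tryptophan, any 2 residues and leucine, isoleucine or valine, the form of the core ATG8-interacting motif, occurred at positions 279, 481 and 661. ATG8A, ATG8I and NBR1 share 27, 183 and 101 exonic bases with a gene on the other strand, and the strand setting of the counts is not given in the sources used here, so their values may include reads of those neighbours.

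Per kb of exon, ATG8E had the highest mean of the ATG8 transcripts in all 12 groups and ATG8G the lowest. The order of ATG8E and ATG8F depends on the exon length used, 915 and 1864 bases. Without it ATG8F was higher, at 116 CPM in WT at NHS, against 95.1 CPM for ATG8E. In WT at T the ranges of ATG8E (37.2 to 65.6 CPM per kb) and ATG8F (34.9 to 46.6) overlapped. In WT at NHS, ATG8E reached 104 ± 13.6 CPM per kb, NBR1 76.9 ± 5.31 and ATG8F 62.2 ± 10.5 (SD, n = 3), and the ranges of NBR1 and ATG8F overlapped. ATG8I (32.9 CPM per kb), ATG8A (24.9) and ATG8H (19.4) formed a middle tier with ranges apart from each other. ATG8D (14.1) and ATG8C (13.6) overlapped, and ATG8B (7.85) and ATG8G (2.87) closed the order. At P+T in WT, ATG8H stood at 35.1 ± 4.47 CPM per kb and overlapped ATG8F (40.0 ± 5.56), having moved past ATG8A (26.6) and ATG8I (26.1). ATG8H held rank 4 to 6 over the 12 groups, and ATG8B and ATG8G kept ranks 9 and 10 in all of them.

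**Figure D1:**
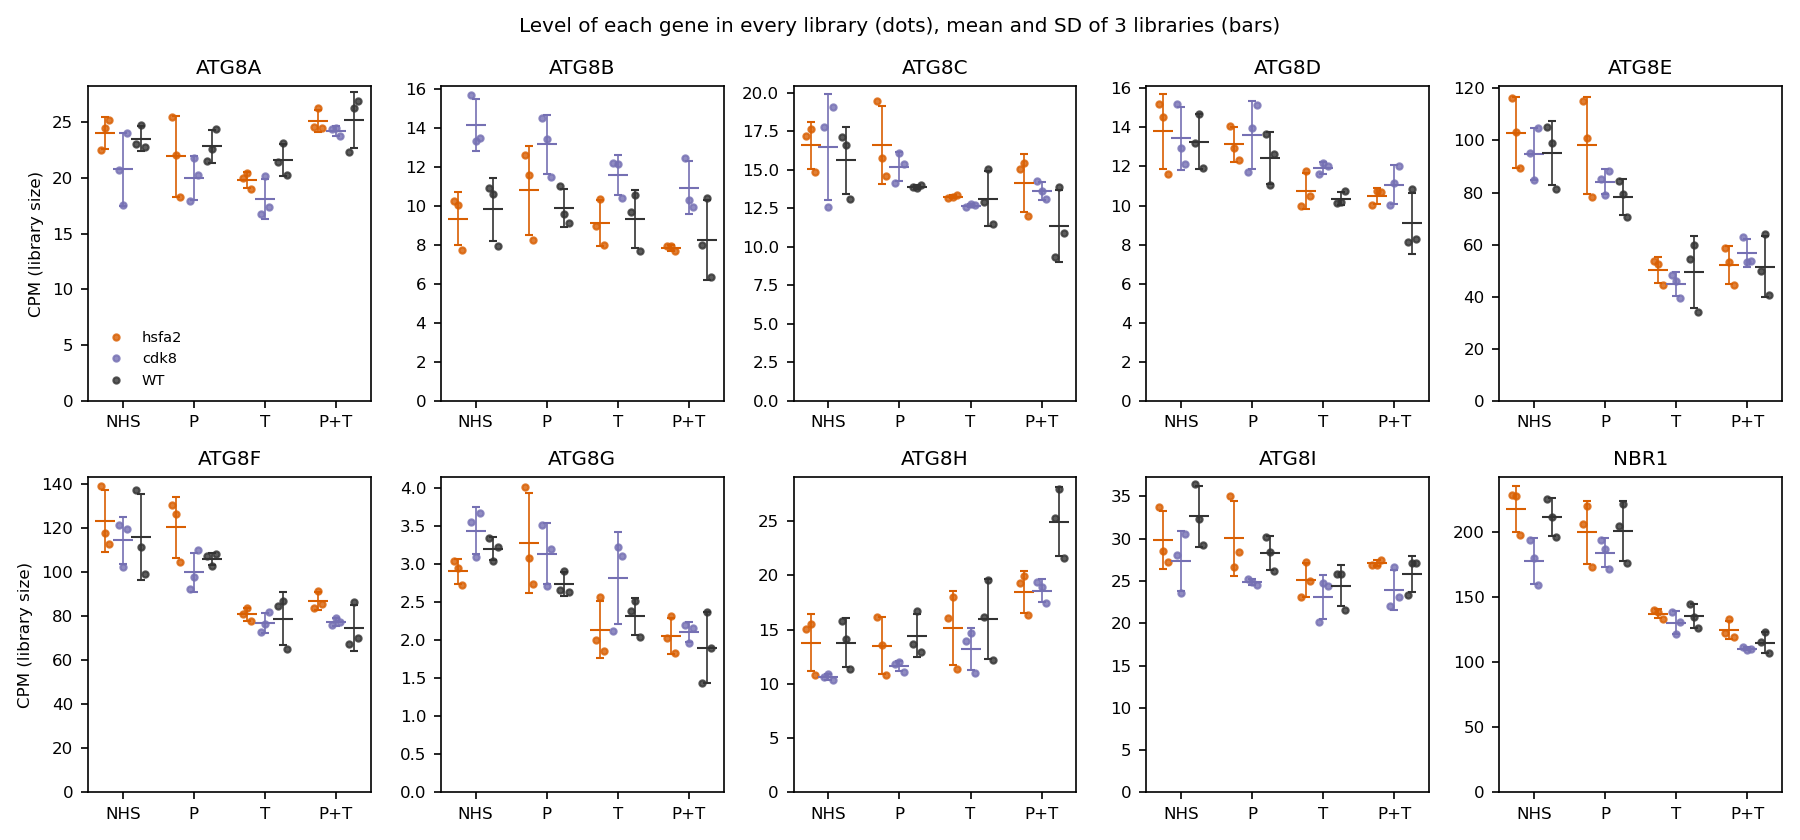
Levels of the 10 genes in CPM in each library, in a panel per gene, by treatment (NHS, P, T, P+T) and genotype (hsfa2, cdk8, WT); points are libraries and bars are the mean and SD of 3 libraries. ATG8H is highest at P+T, where the WT libraries lie at 21.6 to 28.0 CPM, and NBR1 has lower CPM at T and P+T than at NHS and P in every genotype, a difference not seen in the TMM-scaled T/NHS values (0.12 to 0.15).

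Priming alone gave no change on day 7 that passed the test. In WT P/NHS 0 of the 10 genes passed in edgeR, 0 at an unadjusted p under 0.05 and 0 in DESeq2. Of the 20847 genes tested, 87 rose and 16 fell by the edgeR adjusted p, and 1438 passed at an unadjusted p under 0.05. At an adjusted p under 0.05 and a log2FC beyond 1 in either direction, 45 of all genes tested (0.216%) were called. The log2FC of the members lay between -0.28 for ATG8E (SE 0.15, edgeR adjusted p = 0.813) and 0.07 for ATG8H (SE 0.16, adjusted p = 1). ATG8E had 84.5, 79.3 and 70.8 CPM at P, against 105, 99.1 and 81.2 CPM at NHS, and these ranges overlapped.

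A first HS raised 6 of the 10 genes relative to the bulk of the transcriptome, all of them ATG8 genes and none by more than 2-fold. No member was called by edgeR in WT T/NHS at a log2FC beyond 1 (DESeq2 called 1), against 25.7% of all genes. By the adjusted p alone, ATG8A, ATG8B, ATG8C, ATG8D, ATG8H and ATG8I rose and no member fell, against 29.9% of all genes up and 32.5% down. The median log2FC of the 10 members was 0.39, against -0.05 for all genes. Except in ATG8H, these gains were smaller than the shift between scalings. With library size alone, ATG8A, ATG8B, ATG8C, ATG8D and ATG8I turned to negative values of -0.08 to -0.42. ATG8H alone of the 6 stayed positive, at 0.21 with edgeR adjusted p = 0.27.

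ATG8H showed the largest value of the family. Its level was 16.2, 19.6 and 12.2 CPM at T, against 15.8, 14.2 and 11.4 CPM at NHS, with overlapping ranges. The TMM-scaled log2FC was 0.98 (SE 0.16, edgeR adjusted p = 4.51e-06), and it reached 1.10 without WT NHS replicate 1 and 1.11 without WT T replicate 3. ATG8A, the next by adjusted p, had 21.4, 23.1 and 20.2 CPM at T, against 23.0, 24.8 and 22.7 CPM at NHS (log2FC = 0.65, SE 0.12, adjusted p = 2.95e-05). The ATG8A ranges overlapped in CPM, with the T libraries at the lower end, so that its rise holds relative to the bulk of genes and not in CPM.

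ATG8B, a weakly expressed ATG8, gave a log2FC of 0.69 (SE 0.15, edgeR adjusted p = 0.000253) from 9.69, 10.6 and 7.72 CPM at T, against 10.9, 10.6 and 7.97 CPM at NHS. ATG8C gave 0.52 (SE 0.14, adjusted p = 0.00212), with 13.1 ± 1.79 CPM at T and 15.6 ± 2.19 CPM at NHS (SD, n = 3). ATG8D had 10.1, 10.2 and 10.7 CPM at T, against 13.2, 14.7 and 11.9 CPM at NHS, and gave 0.42 (SE 0.12, adjusted p = 0.00423). In both genes the mean CPM was thus lower at T while the scaled value was higher. ATG8I, whose protein ends at the glycine like that of ATG8H, had 25.8, 25.8 and 21.6 CPM at T, against 36.4, 32.3 and 29.2 CPM at NHS, and gave 0.35 (SE 0.13, adjusted p = 0.0215), which no longer passed without WT T replicate 1, WT T replicate 2, WT NHS replicate 2 or WT NHS replicate 3, where adjusted p was 0.0573 to 0.103.

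ATG8E, ATG8F, ATG8G and NBR1 did not pass the test. ATG8E had 54.5, 60.0 and 34.0 CPM at T, against 105, 99.1 and 81.2 CPM at NHS, with no overlap. Its TMM-scaled log2FC was -0.18 (SE 0.15, edgeR adjusted p = 0.308), and with library size alone it was -0.94 (adjusted p = 1.28e-05). ATG8F had 84.7, 86.8 and 65.0 CPM at T, against 137, 111 and 99.1 CPM at NHS (log2FC = 0.21, adjusted p = 0.129, and -0.56 with library size alone), and it passed without WT NHS replicate 1 (0.36, adjusted p = 0.0144). NBR1 had 144, 135 and 126 CPM at T, against 225, 212 and 196 CPM at NHS. For the receptor the TMM-scaled log2FC was 0.13 (SE 0.09, adjusted p = 0.227), and with library size alone it was -0.64 (adjusted p = 1.02e-06), near the shift of the median gene. ATG8G, the least abundant of the family, had 2.38, 2.51 and 2.05 CPM at T, against 3.34, 3.05 and 3.23 CPM at NHS (log2FC = 0.30, SE 0.19, adjusted p = 0.159, and -0.47 with library size alone).

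**Figure D2:**
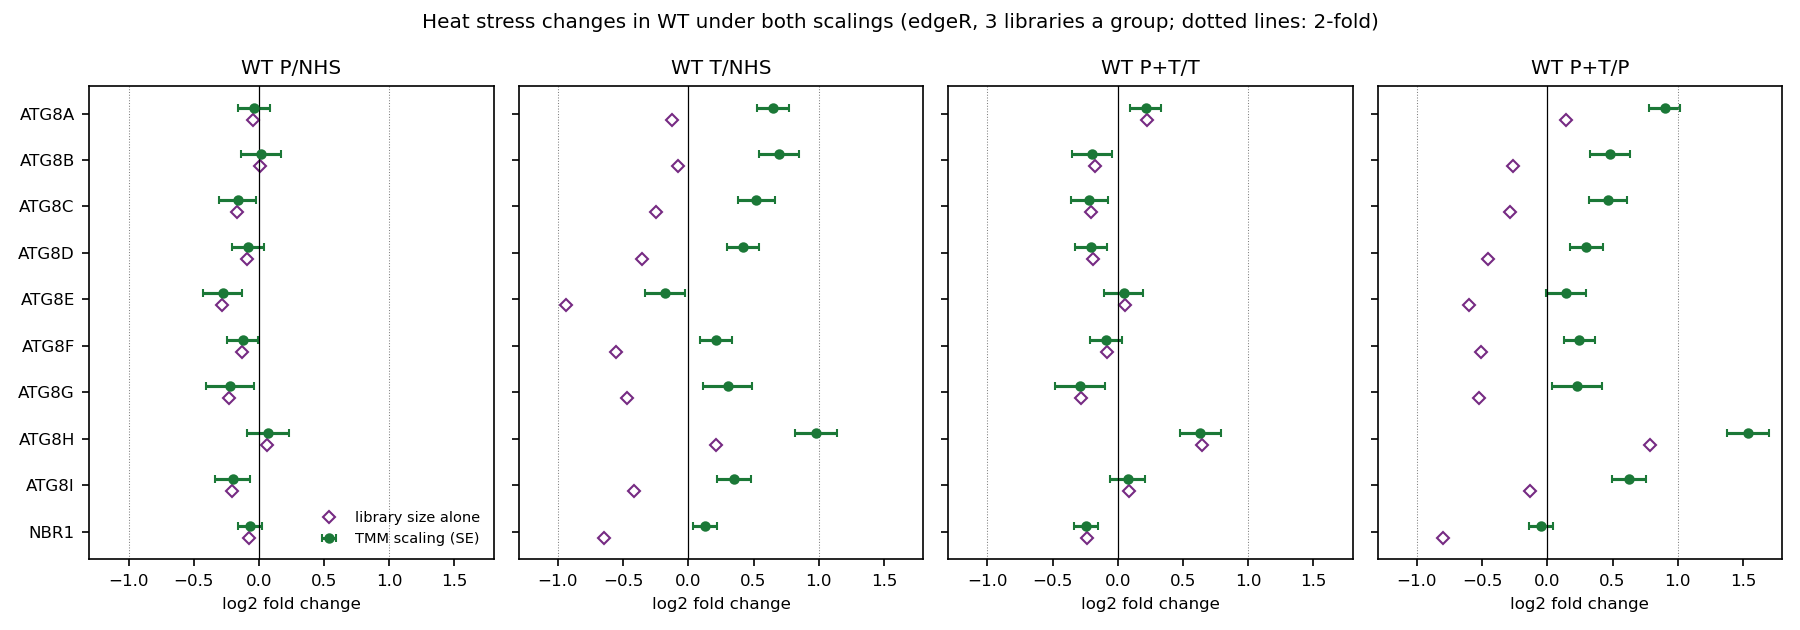
Log2FC of the 10 genes in WT for P/NHS, T/NHS, P+T/T and P+T/P; filled points are TMM-scaled values with their SE and diamonds are values with library size alone. ATG8H leads the family in T/NHS (0.98), P+T/T (0.63) and P+T/P (1.54), and the diamonds sit well below the points in T/NHS and P+T/P but close to them in P/NHS and P+T/T.

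After a second HS, ATG8H alone of the 10 genes was higher than after a first HS. ATG8H had 25.3, 28.0 and 21.6 CPM at P+T in WT, against 16.2, 19.6 and 12.2 CPM at T, with every P+T library above every T library. The log2FC of P+T/T was 0.63 (SE 0.16, edgeR adjusted p = 0.00453), and 0.64 with library size alone (adjusted p = 0.00946). By adjusted p alone 9.66% of all genes were higher, and by the fold threshold as well, which ATG8H did not reach, 4.67% of all genes were called. The other ATG8 genes lay between -0.29 (ATG8G, adjusted p = 0.351) and 0.21 (ATG8A, adjusted p = 0.258). NBR1 had 115, 123 and 107 CPM at P+T, against 144, 135 and 126 CPM at T, with no overlap. Its log2FC of -0.25 (SE 0.09) did not pass (adjusted p = 0.0634), but it passed with the replicate number as a block (-0.25, adjusted p = 0.037), a fit in which same-numbered libraries of these groups were paired.

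Relative to the primed state, ATG8H was the member called at more than 2-fold, in a comparison in which 27.3% of all genes were called. It had 25.3, 28.0 and 21.6 CPM at P+T, against 13.7, 16.7 and 12.9 CPM at P (log2FC = 1.54, SE 0.16, edgeR adjusted p = 1.24e-09), and 0.79 with library size alone (adjusted p = 0.000155). ATG8A followed with 0.90 (SE 0.12, adjusted p = 1.72e-07) and passed 2-fold without WT P+T replicate 1, at 1.01. By adjusted p alone 6 members rose and none fell, against 30.4% of all genes up and 34.2% down. The other 4 were ATG8B (0.48), ATG8C (0.47), ATG8D (0.30) and ATG8I (0.63), and with library size alone all 4 turned negative, to between -0.13 and -0.45. ATG8D did not pass without replicate 2 or 3 of either group (adjusted p = 0.0554 to 0.26, down to 0.18 without WT P+T replicate 2). Without WT P+T replicate 2, ATG8B (0.31, adjusted p = 0.104) and ATG8C (0.32, adjusted p = 0.0703) did not pass either, and ATG8F passed without WT P+T replicate 1 (0.34, adjusted p = 0.0253). NBR1 had 115, 123 and 107 CPM at P+T, against 204, 221 and 176 CPM at P (log2FC = -0.05, SE 0.09, adjusted p = 0.647, and -0.80 with library size alone, adjusted p = 2.12e-08). P+T/P and P+T/T share their P+T libraries, so the ATG8H values of both are not separate evidence.

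A measure that needs no scaling between libraries is the share of each gene among the summed counts of the 9 ATG8 genes, and likewise the NBR1 counts per 100 ATG8 counts. These measures were added after the data had been seen, in 200 comparisons of groups. An exact permutation test of 3 against 3 libraries cannot give less than p = 0.1, which no adjustment can bring under 0.05, so they are described by whether the ranges overlapped, as they failed to do in 75 of the 200. The shares of a library are parts of the same sum, so a lower share of any gene raises the others. ATG8H made up 11.8, 10.4 and 10.1% of ATG8 counts at P+T in WT, 6.80, 7.71 and 6.60% at T, 4.60, 5.82 and 4.59% at P and 4.38, 4.34 and 4.06% at NHS. The 4 ranges were apart from each other, with ATG8H highest after the second HS. ATG8E made up 22.9, 23.6 and 18.4% at T, against 29.0, 30.3 and 29.0% at NHS, again apart. ATG8E and ATG8F together held 56.7% of ATG8 counts at T, against 65.3% at NHS (means, n = 3). NBR1 counted 53.6, 45.6 and 49.9 per 100 ATG8 counts at P+T, against 68.4, 77.0 and 62.6 at P, with no overlap, and against 60.8, 53.2 and 68.0 at T, with overlap. The sum of the 9 genes was 225 ± 35.9 CPM at T, against 323 ± 41.3 CPM at NHS (SD, n = 3), and with TMM-scaled CPM the order was the opposite, 304 at T against 256 at NHS.

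**Figure D3:**
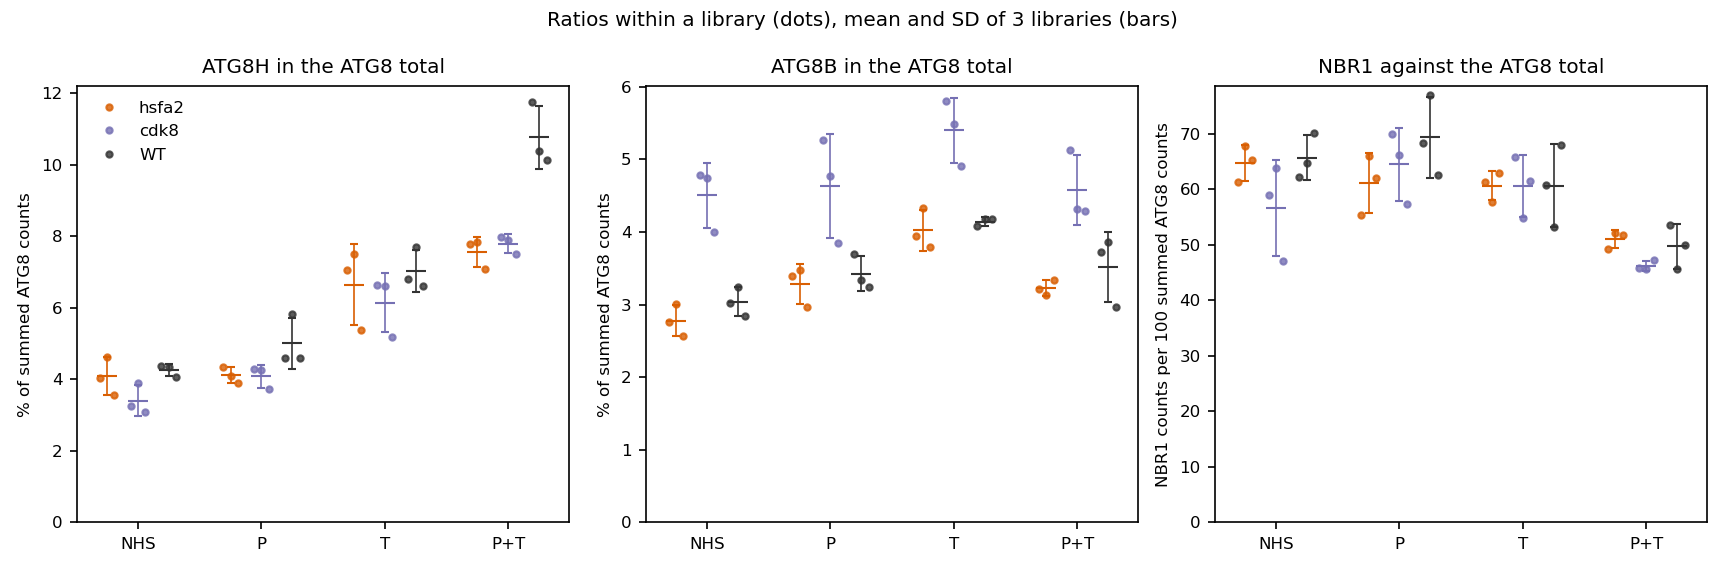
Share of ATG8H and of ATG8B in the summed ATG8 counts (percent) and NBR1 counts per 100 ATG8 counts, in each library by treatment and genotype (hsfa2, cdk8, WT); points are libraries and bars are the mean and SD of 3 libraries. At P+T the ATG8H share is 7.08 to 7.83% in hsfa2 and 7.50 to 7.98% in cdk8, below the 10.1 to 11.8% of WT, and the ATG8B share of cdk8 lies above that of WT under all 4 treatments.

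In hsfa2, the first HS gave values close to those of the WT. ATG8A (0.50), ATG8B (0.74), ATG8C (0.46), ATG8D (0.42), ATG8H (0.92) and ATG8I (0.53) rose in hsfa2 T/NHS by adjusted p, 6 of 10 against 29.9% of all genes up. With library size alone ATG8A, ATG8B, ATG8C, ATG8D and ATG8I were negative here too. No difference between hsfa2 and WT in the T/NHS response passed for any member (edgeR and DESeq2, and 0 at an unadjusted p under 0.05), with 0.00480% of all genes past the threshold. The largest among the members was that of ATG8I at 0.18 (SE 0.19).

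In hsfa2, ATG8H did not pass the test for a higher level after the second HS. It had 19.3, 19.9 and 16.3 CPM at P+T, against 16.1, 18.0 and 11.4 CPM at T, with overlap, and the log2FC of P+T/T was 0.30 (SE 0.16, edgeR adjusted p = 0.275). No member passed in hsfa2 P+T/T with edgeR (1 in DESeq2), where 4.76% of all genes were higher. At an unadjusted p under 0.05 it was 1 member, against 4323 of 20847 genes. ATG8A came nearest with 0.36 (SE 0.12, adjusted p = 0.0664, and 0.0426 with the replicate block). Set against WT at P+T, the 19.3, 19.9 and 16.3 CPM of hsfa2 all lay under the 25.3, 28.0 and 21.6 CPM of WT. This hsfa2/WT log2FC was -0.42 (SE 0.16) with an adjusted p of 0.115 in edgeR, and it passed with the replicate block (adjusted p = 0.0122), where same-numbered libraries of these groups were paired. The interaction, which compares the P+T/T response of hsfa2 with that of WT, was -0.33 for ATG8H (SE 0.22, adjusted p = 0.9) and did not pass for any member (0 at an unadjusted p under 0.05, and 0 in DESeq2), with 1.20% of all genes past the threshold.

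The share of ATG8H in the family's counts, which is free of the scaling, was 7.78, 7.83 and 7.08% in hsfa2 at P+T, against 11.8, 10.4 and 10.1% in WT, with no overlap. At T it was 7.06, 7.51 and 5.38% in hsfa2, against 6.80, 7.71 and 6.60% in WT, with overlap. After P it was 4.34, 4.09 and 3.90% in hsfa2, against 4.60, 5.82 and 4.59% in WT, apart, and at NHS the ranges overlapped. Other shares were apart too, namely ATG8C (5.77%, against 4.87% in WT), ATG8D (4.31%, against 3.90%) and ATG8F (35.6%, against 32.0%), all higher at P+T. As parts of the same sum, they do not move independently of the lower ATG8H share. Lower in hsfa2 were ATG8A at P (6.67%, against 7.91%) and at T (8.75%, against 9.67%), and ATG8G (0.867%, against 1.00%) and ATG8I (8.86%, against 10.1%) at NHS (means, n = 3).

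Without the block, no member passed the edgeR test between hsfa2 and WT under any treatment. Of all genes, 0.0192% did so at NHS, 0.307% after P, 0.153% after T and 6.51% after P+T. At an unadjusted p under 0.05, 2 members differed at P+T, against 3868 of 20847 genes, and 0 under the other treatments. DESeq2 called 0 members under each of the 4. NBR1 had 122, 133 and 119 CPM in hsfa2 at P+T, against 115, 123 and 107 CPM in WT (log2FC = 0.13, SE 0.09, edgeR adjusted p = 0.484). Within hsfa2, NBR1 counted 49.2, 52.2 and 51.8 per 100 ATG8 counts at P+T, against 61.3, 57.7 and 63.0 at T, with no overlap. ATG8C gave the highest value at P+T, 0.32 (SE 0.14, adjusted p = 0.215), with 14.1 ± 1.89 CPM in hsfa2 and 11.4 ± 2.33 CPM in WT (SD, n = 3).

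In cdk8, the first HS raised ATG8A (0.39), ATG8D (0.42), ATG8H (0.90) and ATG8I (0.35) by adjusted p, 4 of 10 against 29.2% of all genes up, and lowered ATG8E (-0.50, SE 0.15, edgeR adjusted p = 0.00546), against 30.2% down. With library size alone ATG8A, ATG8D and ATG8I were negative, from -0.17 to -0.24. ATG8A did not pass without cdk8 NHS replicate 2 (0.26, adjusted p = 0.075) or cdk8 T replicate 2 (0.29, adjusted p = 0.0665), nor ATG8I without cdk8 NHS replicate 2 (0.23, adjusted p = 0.167), cdk8 T replicate 2 or cdk8 T replicate 3 (adjusted p = 0.113 and 0.111). ATG8C passed without cdk8 NHS replicate 3 (0.37, adjusted p = 0.0364) and ATG8G without cdk8 T replicate 1 (0.55, adjusted p = 0.013). ATG8E had 48.5, 46.2 and 39.5 CPM in cdk8 at T, against 95.1, 84.9 and 105 CPM in cdk8 at NHS, with no overlap. No T/NHS response of a member differed from that of WT in edgeR or DESeq2, and 0 did at an unadjusted p under 0.05 (4.30% of all genes did by adjusted p), the nearest being ATG8B at -0.39 (SE 0.21, adjusted p = 0.407). In cdk8 P+T/T, ATG8A (0.46, SE 0.12, adjusted p = 0.0123; 24.4, 24.5 and 23.7 CPM at P+T, against 16.8, 20.1 and 17.4 CPM at T) and ATG8H (0.53, SE 0.16, adjusted p = 0.0274) rose, against 5.96% of all genes. ATG8H did not pass without cdk8 T replicate 1, cdk8 T replicate 3 or any P+T library of cdk8 (adjusted p = 0.0554 to 0.161), nor ATG8A without cdk8 T replicate 1 or 3. The P+T/T response of no member differed from WT in either tool or at an unadjusted p under 0.05, with 0.739% of all genes past the threshold and ATG8H at -0.10 (SE 0.22).

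By the edgeR test, the cdk8 mutant held less ATG8H transcript than the WT at T and P+T, relative to the bulk of genes. The log2FC of ATG8H was negative at NHS and P too, without passing that test. ATG8H had 19.4, 18.9 and 17.4 CPM in cdk8 at P+T, against 25.3, 28.0 and 21.6 CPM in WT, with no overlap (log2FC = -0.60, SE 0.16, edgeR adjusted p = 0.00629), where 18.4% of all genes differed. At T it had 14.0, 14.7 and 11.0 CPM in cdk8, against 16.2, 19.6 and 12.2 CPM in WT, with overlap (-0.50, SE 0.16, adjusted p = 0.023), where 22.2% of all genes differed. At T the ATG8H difference did not pass without cdk8 T replicate 1, cdk8 T replicate 3 or WT T replicate 2 (adjusted p = 0.0693 to 0.181). With library size alone the difference was -0.42 at P+T and -0.27 at T and did not pass at either. At NHS ATG8H had 10.7, 10.9 and 10.4 CPM in cdk8, against 15.8, 14.2 and 11.4 CPM in WT. The log2FC at NHS was -0.42 (SE 0.16, adjusted p = 0.118), and -0.41 with the replicate block (adjusted p = 0.017). The ATG8H share was 7.98, 7.90 and 7.50% in cdk8 at P+T, against 11.8, 10.4 and 10.1% in WT, and 3.25, 3.90 and 3.08% in cdk8 at NHS, against 4.38, 4.34 and 4.06% in WT, apart in both. At P it was 4.28, 4.26 and 3.72% in cdk8, against 4.60, 5.82 and 4.59% in WT, apart as well, while at T the ranges overlapped. At P no member differed in edgeR or DESeq2, with 6.38% of all genes past the threshold. At an unadjusted p under 0.05, 2 members differed, against 3600 of 20847 genes. ATG8H gave a log2FC of -0.36 at P in DESeq2 (adjusted p = 0.236). With the replicate block it was -0.35 (adjusted p = 0.046), where not every pair correlated above 0.1.

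ATG8A and NBR1 were also lower in cdk8 under some treatments. ATG8A had 16.8, 20.1 and 17.4 CPM in cdk8 at T, against 21.4, 23.1 and 20.2 CPM in WT, with every cdk8 library under every WT library (log2FC = -0.48, SE 0.12, edgeR adjusted p = 0.0042, and -0.25 with library size alone). NBR1 had 139, 122 and 130 CPM in cdk8 at T, against 144, 135 and 126 CPM in WT, with overlap. The TMM-scaled NBR1 difference at T was -0.28 (SE 0.09, adjusted p = 0.0248), which was -0.05 with library size alone and did not pass without WT T replicate 1, cdk8 T replicate 1 or cdk8 T replicate 2 (adjusted p = 0.06 to 0.0883). At NHS, where 7.00% of all genes differed, NBR1 had 194, 180 and 159 CPM in cdk8, against 225, 212 and 196 CPM in WT, with no overlap. This NHS difference was -0.30 (SE 0.09, adjusted p = 0.0388), and it did not pass without WT NHS replicate 1, WT NHS replicate 2, cdk8 NHS replicate 2 or cdk8 NHS replicate 3 (adjusted p = 0.0829 to 0.2). At P+T it was -0.23 (adjusted p = 0.0768, and 0.0464 with the replicate block). Relative to the ATG8 sum, NBR1 in cdk8 overlapped WT at NHS and at T. Within cdk8 it counted 45.8, 45.6 and 47.2 per 100 ATG8 counts at P+T, against 65.8, 54.8 and 61.4 at T, with no overlap.

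ATG8B did not pass the edgeR test without the block between cdk8 and WT under any treatment, but its share of ATG8 counts was apart under all of them. It had 15.7, 13.3 and 13.5 CPM in cdk8 at NHS, against 10.9, 10.6 and 7.97 CPM in WT, with no overlap. The log2FC was 0.47 (SE 0.15, edgeR adjusted p = 0.0522), and 0.48 with the replicate block (adjusted p = 0.00544). It passed in DESeq2 (0.49, adjusted p = 0.0317) and in edgeR without WT NHS replicate 1 (0.57, adjusted p = 0.0496). Its share of ATG8 counts was 4.79, 4.74 and 3.99% in cdk8 at NHS, against 3.02, 3.25 and 2.85% in WT. At T the share was 5.80, 5.48 and 4.91% in cdk8, against 4.08, 4.18 and 4.17% in WT, and at P+T 5.13, 4.32 and 4.29% in cdk8, against 3.73, 3.87 and 2.97% in WT. The shares were apart under all 4 treatments. At P the log2FC was 0.37 (SE 0.15, adjusted p = 0.176), and 0.36 with the replicate block (adjusted p = 0.0474), where not every pair correlated above 0.1. In CPM the cdk8 and WT ranges of ATG8B overlapped at T (10.4 to 12.2 CPM in cdk8, against 7.72 to 10.6 CPM in WT) and at P+T (9.99 to 12.5 CPM in cdk8, against 6.34 to 10.4 CPM in WT), where its log2FC was 0.08 (SE 0.15, adjusted p = 0.74) and 0.23 (SE 0.15, adjusted p = 0.327). The cdk8/WT log2FC of ATG8E at T was -0.37 (SE 0.15, adjusted p = 0.078, and -0.36 with adjusted p = 0.0361 with the replicate block).

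The cdk8 libraries also differed from the others in composition. Their TMM factors at T were 0.832 to 0.93, against 0.698 to 0.761 in WT, and with library size alone the median log2FC of all genes in cdk8/WT at T moved to 0.26 from 0.03. The summed level of the seed storage genes SESA1 and CRA1 reached 6.78 to 2630 CPM in the cdk8 libraries, against 0.449 to 30.8 CPM for hsfa2 and 1.31 to 51.1 CPM for the WT. The part of both in the cdk8 results was not tested.

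**Figure D4:**
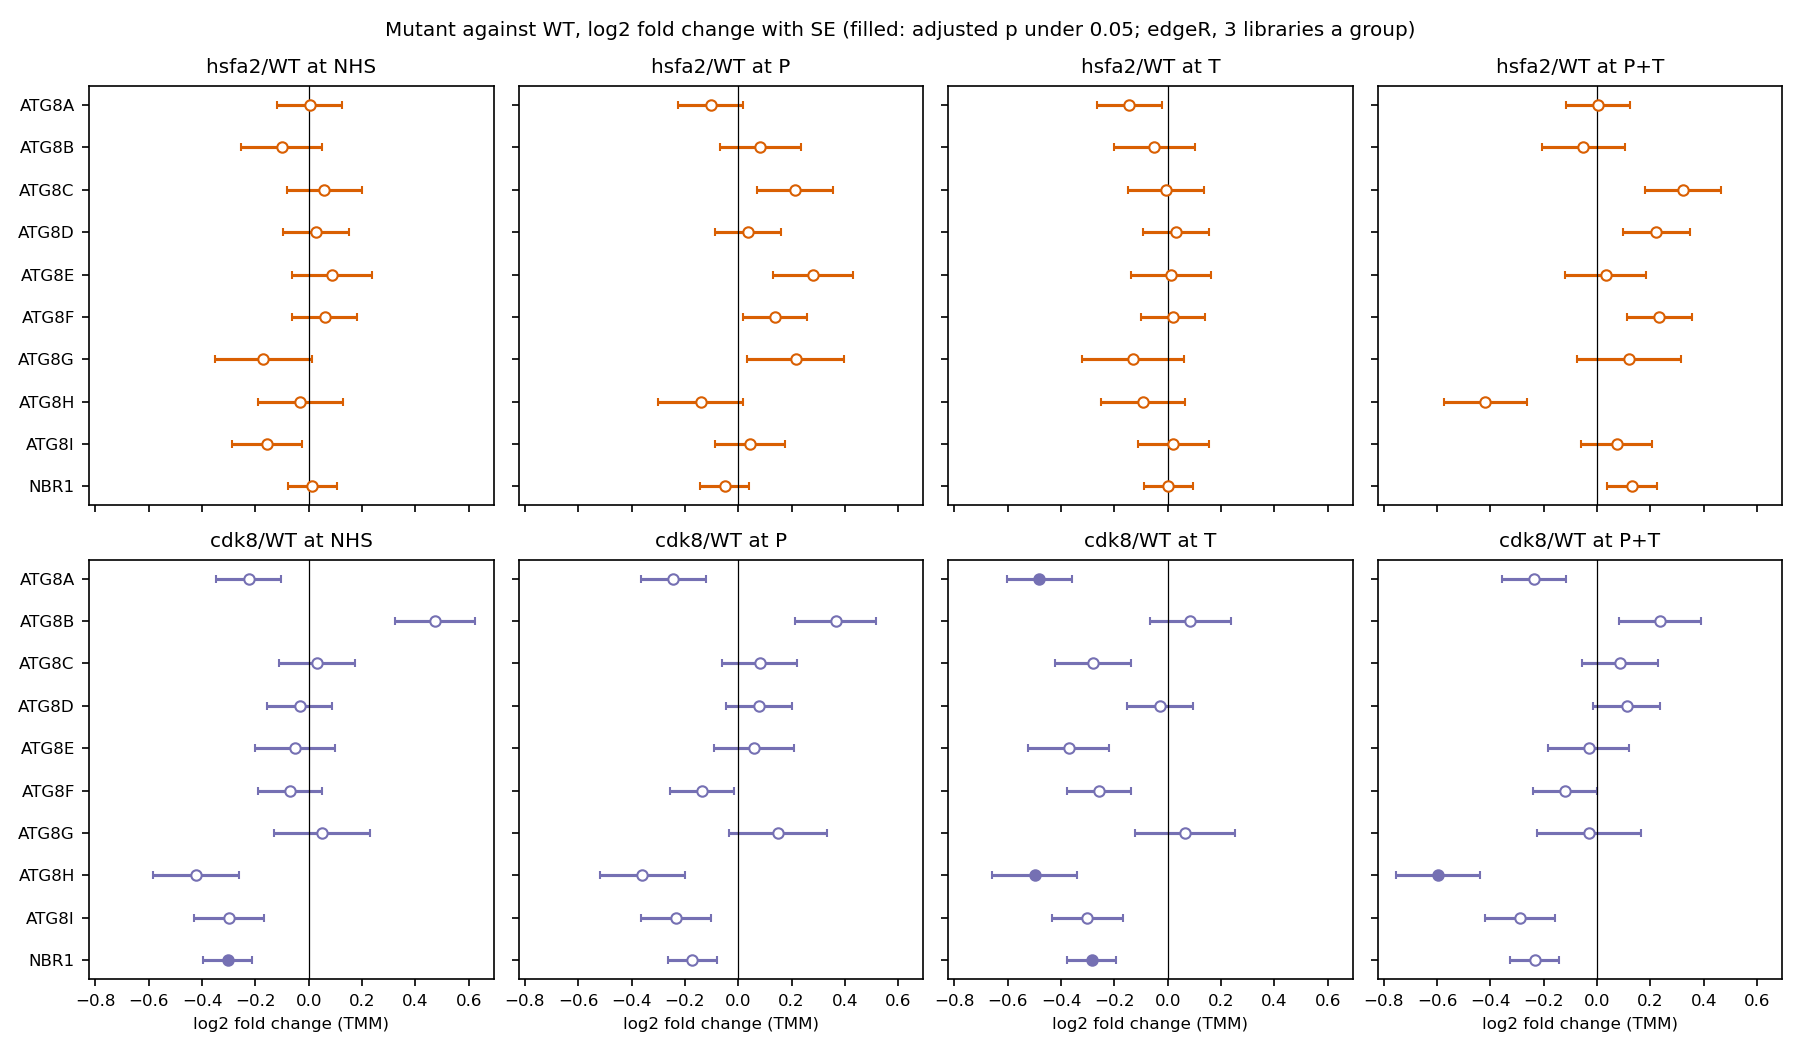
Log2FC of the 10 genes in hsfa2/WT and cdk8/WT at NHS, P, T and P+T, TMM-scaled, with SE; filled points have an adjusted p under 0.05 (edgeR). No point is filled in hsfa2/WT, and in cdk8/WT the filled points are NBR1 at NHS, ATG8A, ATG8H and NBR1 at T and ATG8H at P+T.

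The rest of the autophagy machinery was followed in a list of 42 genes, of which 41 were tested. In WT T/NHS, 13 (31.7%) rose and 10 (24.4%) fell by adjusted p, against 29.9% up and 32.5% down of all genes, with a median log2FC of 0.05. In the fit with library size none rose and 34 fell, where the median log2FC of all genes was -0.82. By role and with TMM scaling, 7 of 9 other cargo receptors and adaptors rose and none fell (with library size alone none rose and 6 fell), whereas 2 of 8 genes of the ATG1 kinase complex, which starts autophagosome formation, rose and 4 fell. Of 6 tested genes of the phosphatidylinositol 3-kinase complex none rose and 2 fell, of 9 of the ATG9, ATG2 and ATG18 group, which supplies membrane, 2 rose and 3 fell, and of 9 of the ATG8 and ATG12 conjugation systems 2 rose and 1 fell. Past 2-fold, TSPO (AT2G47770), a stress-induced membrane protein degraded by autophagy, was higher, at 2.93, 1.12 and 0.504 CPM at T, against 1.17, 0.426 and 0.538 CPM at NHS, with overlap (log2FC = 1.84, SE 0.52, edgeR adjusted p = 0.00291). TSPO did not pass without WT T replicate 1 (0.97, adjusted p = 0.14) or with library size alone (1.09, adjusted p = 0.0622). ATG18G (AT1G03380), a member of a phosphoinositide-binding family, and AT1G49180, annotated as a protein kinase, were lower past 2-fold at -1.03 and -1.05, and under 2-fold without WT T replicate 3 (-0.95 and -0.90). With library size alone 12 of the list were called, under the same shift of all genes. No gene of the list passed in P/NHS (0 called by DESeq2), with 1 at an unadjusted p under 0.05, against 1438 of 20847 genes. None was called at 2-fold in P+T/T by either tool. By adjusted p, 3 (7.32%) rose and 2 (4.88%) fell, against 9.66% of all genes up and 1461 of 20847 down.

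Of this list none differed between hsfa2 and WT under any treatment in edgeR. At an unadjusted p under 0.05, 1 differed under NHS, 3 under P, 3 under T and 10 under P+T. Of the 20847 genes tested, 387, 1519, 1236 and 3868 did so under these treatments. DESeq2 called 1 of the list at P+T. In cdk8/WT at T, 4 were higher and 2 lower, 14.6% of the list against 22.2% of all genes. With library size alone 15 were higher and none lower, where the median log2FC of all genes was 0.26. ATG11 (AT4G30790), a scaffold of the ATG1 complex, had 44.8, 29.1 and 25.8 CPM in cdk8 at T, against 17.7, 16.1 and 14.6 CPM in WT, with no overlap (log2FC = 0.80, SE 0.15, edgeR adjusted p = 0.000145). At NHS ATG11 had 59.7, 60.3 and 35.3 CPM in cdk8, against 57.5, 53.1 and 52.2 CPM in WT. It alone of the members and the list passed an interaction test, its T/NHS response being higher in cdk8 than in WT by 0.93 (SE 0.20, adjusted p = 0.0045, and 1.11 with library size alone, adjusted p = 0.00557). AT1G49180 (0.62), AT2G32760 (0.61) and ATG18G (0.44) were higher in cdk8 at T as well, and ATG18A (-0.50), of the same family as ATG18G, and ATI1 (-0.34), an ATG8-interacting protein, were lower. Without cdk8 T replicate 1, ATG11 was at 0.58 (adjusted p = 0.00401), while ATG18G (0.26), AT1G49180, AT2G32760 and ATI1 did not pass (adjusted p = 0.0536 to 0.302). At P+T, AT3G59950, annotated as a C54 peptidase of autophagy, was higher (0.33), and AT3G53930 (-0.39), annotated as a protein kinase, and ATG9 (-0.30), a membrane protein of the forming autophagosome, were lower. ATG9 lost the call when any 1 of the 6 libraries was left out (adjusted p = 0.0525 to 0.14), and AT3G53930 did not pass without replicate 1 or 2 of either genotype.

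Over the 12 group means of log2(TMM-scaled CPM + 1), ATG8A and ATG8H ran most alike of the members (Pearson r = 0.98), followed by ATG8A and ATG8I (0.96) and ATG8C and ATG8D (0.94). ATG8E stood apart, with r between -0.61 and 0.20 against the other members, and NBR1 had r between -0.16 and 0.66. Among 17846 genes, the pattern of NBR1 was closest to AT4G34600 (0.96), AT2G30840 (0.96), LRL3 (AT5G58010, 0.95), AT1G79970 (0.95) and AT2G32870 (0.95). The closest gene to ATG8H was AT4G29360 (0.99), to ATG8A AT2G47690 (0.98), to ATG8I AT5G45350 (0.99) and to ATG8D UGLYAH (AT4G17050, 0.99). For ATG8E and ATG8G the best values were lower, 0.88 with AT4G33910 and 0.90 with RAD9 (AT3G05480). For ATG8B, ATG8C and ATG8F they were AT1G73650, AT5G64500 and AT5G61530 (each 0.98). The points share their libraries and scaling, so these values describe likeness only.

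The 250 bases upstream of each annotated gene start were searched for the 2-unit heat shock elements GAANNTTC and TTCNNGAA, each its own reverse complement. None of the 10 genes held either motif. Of 27443 upstream windows of protein-coding genes, 9.55% held GAANNTTC, 7.68% held TTCNNGAA and 16.1% held either. For the 10 genes this says only that these letters are not in their windows.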

How the data were processed

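RNA from whole seedlings was made into oligo-dT libraries and sequenced as read pairs. Per the study's methods, the authors mapped the pairs to TAIR10 with STAR 2.7.10a and deposited its gene counts, raw and not normalized, 1 file per library. The strand setting is not given in the sources used here. Rows that name no gene (9.26 to 12.1% of pairs, with ambiguous pairs alone at 5.62 to 7.1%) were left out, so reads shared by near-identical genes are lost, not split.

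Counts were fitted with edgeR 4.0.16 (R 4.3.3, limma 3.58.1): filterByExpr (minimum count 10, total 15), TMM scaling, 1 quasi-likelihood model of 12 groups over 36 libraries, and Benjamini-Hochberg adjustment over 20847 genes. The SE of a log2FC was its size over the square root of F. HS comparisons were called at an adjusted p under 0.05 and a log2FC beyond 1, as in the study, and genotype comparisons and interactions at the adjusted p alone. The fit was tested on simulated data in which a set of genes changed in WT T only, as many up as down. That simulation held no change of composition, so it could not test the scaling under HS. DESeq2 1.42.0, other scalings and filters, a replicate block and leaving out each library were the alternatives. Replicate numbers were taken to pair libraries where every same-numbered pair of deviations from the group means correlated above 0.1, which held in 10 of 16 comparisons (r = -0.0381 to 0.782). No libraries of a group were duplicates (chi-square per degree of freedom 6.47 to 57.6). The replicates are labelled as biological.

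Coordinates, exon lengths and coding sequences came from the TAIR10.1 annotation, with the same chromosomes. All 10 members were named, and, for likeness, the 5 genes closest to NBR1 and the closest to each ATG8 gene; of the machinery, at most 3 genes called up and 3 down in each comparison. The members were taken by name and annotation, but they and the lists were chosen with earlier results of these data known.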

Additional observations from a re-analysis of the deposited data

How the results depend on the processing

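Library size in place of TMM turned the sign of 44 of 200 log2FC of the members over all comparisons and interactions. In WT T/NHS it turned ATG8A to -0.12, ATG8B to -0.077, ATG8C to -0.25, ATG8D to -0.36, ATG8F to -0.56, ATG8G to -0.47, ATG8I to -0.42 and NBR1 to -0.64. In WT P+T/P it turned ATG8B to -0.26, ATG8C to -0.29, ATG8D to -0.45, ATG8E to -0.60, ATG8F to -0.51, ATG8G to -0.52 and ATG8I to -0.13. In hsfa2 T/NHS it turned ATG8A to -0.28, ATG8B to -0.037, ATG8C to -0.32, ATG8D to -0.36, ATG8F to -0.61, ATG8G to -0.44, ATG8I to -0.25 and NBR1 to -0.66. In cdk8 T/NHS it turned ATG8A to -0.20, ATG8B to -0.29, ATG8C to -0.38, ATG8D to -0.17, ATG8F to -0.57, ATG8G to -0.28, ATG8I to -0.24 and NBR1 to -0.45. The log2 ratio of the summed ATG8 level at T over NHS in WT was the reverse with TMM-scaled CPM, 0.249. With library size alone the members called were 0 in WT P+T/P, 1 in hsfa2 T/NHS, 1 in cdk8 T/NHS and 0 in cdk8/WT at NHS, T and P+T. The machinery genes called were then 12 in WT T/NHS, 1 in hsfa2/WT at P+T and 15 in cdk8/WT at T. The median log2FC of all genes under this scaling was -0.82 in WT T/NHS and 0.26 in cdk8/WT at T.

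Without a fold threshold the members passing were 6 in WT T/NHS, 1 in WT P+T/T, 6 in WT P+T/P, 6 in hsfa2 T/NHS, 5 in cdk8 T/NHS and 2 in cdk8 P+T/T, and the machinery genes 23 in WT T/NHS and 5 in WT P+T/T. In WT T/NHS 1 member was called with DESeq2, with its size factors in edgeR and with genotypes fitted alone. In DESeq2 it was ATG8H, at a log2FC of 1.003, against 0.978 in the main fit, under the threshold of 1. The cause in the other fits was not tested. In cdk8/WT at NHS, 2 members were called with DESeq2 and with its size factors, and 0 with no filter on low counts or with genotypes fitted alone. DESeq2 called 2 members in cdk8/WT at P+T and 1 machinery gene in hsfa2/WT at P+T. Testing against 2-fold (glmTreat) left 0 machinery genes in WT T/NHS, and a filter at a mean of 1 CPM gave 5 there and 2 in hsfa2/WT at P+T.

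With the replicate block the members called were 1 in hsfa2/WT at P+T, 3 in cdk8/WT at NHS, 2 in cdk8/WT at P, where not every pair correlated above 0.1, and 2 in cdk8/WT at P+T. The share of all genes called is not given for this fit or the other alternative fits. Their counts of calls therefore cannot be set against a background. The block gave 2 machinery genes in hsfa2/WT at P+T and moved no other count of calls by over 1.5 times.

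Leaving out each library in turn gave 0 to 1 members in WT T/NHS, 1 to 2 in WT P+T/P, 0 to 1 in hsfa2 T/NHS, 0 to 1 in cdk8/WT at NHS and 1 to 4 in cdk8/WT at T (1 without cdk8 T replicate 1). For the machinery it gave 1 to 6 in WT T/NHS (1 without WT T replicate 3), 0 to 1 in WT P+T/T, 0 to 2 in hsfa2/WT at P+T, 0 to 1 in cdk8/WT at NHS, 3 to 6 in cdk8/WT at T (3 without cdk8 T replicate 1, WT T replicate 2 or WT T replicate 3) and 1 to 2 in cdk8/WT at P+T (1 without replicate 1 or 2 of either genotype). The 5 genes nearest to NBR1 ranked 9 to 28 by Spearman correlation and 1 to 206 by Pearson correlation over the 36 libraries, so the order of likeness rests on the measure. ATG8G, with as few as 44 counts, had SE of 0.18 to 0.20 in genotype comparisons, against 0.09 for NBR1, and smaller changes of it were not detectable at this depth.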
